A study of Homo sapiens with 14 samples.

Results

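Total mRNA was compared between MDA-MB-231 cells in which DAP5 was silenced and cells expressing a non-silencing control, in order to find which genes differed in mRNA abundance itself. MDA-MB-231 cells are a widely used human line from breast cancer, mesenchymal in character and without the estrogen receptor. The genes described were those with at least 10 counts in 2 or more of the 4 total mRNA libraries, which gave 15084 of the 58434 gene symbols counted. The groups were MB-231-shNSi (2 libraries) and MB-231-shDAP5 (2 libraries), out of the 14 libraries of total and polysome mRNA. Both lines carried a lentiviral, doxycycline-inducible shRNA with a red fluorescent reporter, and both received doxycycline at 1 µg/ml for 6 days, so the control carried the vector, the inducer and an shRNA of its own. A single shRNA stood for DAP5 silencing. The shDAP5 total libraries were titled as total polysome, share the code of the shNSi total libraries and were read as total mRNA. The RNA came from cytoplasmic lysates, and fewer cells and less mRNA per cell cannot be told apart in such bulk samples.

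DAP5, encoded by EIF4G2, is a relative of the translation initiation scaffold eIF4G that does not bind the cap-binding protein eIF4E. It supports initiation on a subset of mRNAs, through internal entry or through another cap-binding route that uses eIF3d. Its known place of action is translation, and total mRNA is the steady-state level of each transcript, bound to ribosomes or not. MDA-MB-231 cells are known for invasion, for which they use secreted proteases, the plasminogen activator system, integrins and the actin cytoskeleton.

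The libraries held 25965424 to 28056227 counts each, with 21517 to 21909 genes detected. Across the 15084 genes, which are not independent replicates, Pearson's r of log2 CPM (read counts scaled to a common library size) was 0.988 between the shNSi replicates, 0.991 between the shDAP5 replicates and 0.982 to 0.989 between groups. The closest pair across groups was therefore closer than the shNSi replicates, and 349 genes differed by more than 2-fold between them, against 164 between the shDAP5 replicates. The 6 marker genes of MDA-MB-231 cells summed to 8755 and 8373 CPM in shNSi and to 6419 and 7128 CPM in shDAP5. The luminal epithelial markers, 6 of 8 tested, summed to 1033 to 1221 CPM with PGR at 0. The fibroblast markers, 3 of 6 tested, summed to 20.6 to 34.4 CPM with THY1 at 0. The leukocyte markers, 1 of 4 tested, summed to 0.998 to 2.66 CPM, and the endothelial markers, 0 of 3 tested, to 0.180 to 0.463 CPM.

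The targeted mRNA was examined first. EIF4G2 (chr11:10797050-10809110, minus strand, GRCh38) was at 1486 and 1431 CPM in the shNSi libraries and at 572 and 782 CPM in the shDAP5 libraries. Both shDAP5 libraries lay below both shNSi libraries, and the first shDAP5 library had the lower level. The mRNA fell by 1.11 on the log2 scale (SE 0.18, adjusted p = 0.0178; edgeR quasi-likelihood test, Benjamini-Hochberg adjustment over all genes). Without shDAP5 replicate 1 the log2 fold change was −0.90 and the adjusted p was 0.785. EIF4G1, which encodes the canonical scaffold eIF4GI, was at 797 and 973 CPM in shNSi and at 538 and 705 CPM in shDAP5 (log2 fold change −0.51, adjusted p = 0.255). EIF3D, which encodes the eIF3 subunit that binds the cap, was at 398 and 448 CPM in shNSi and at 313 and 333 CPM in shDAP5 (log2 fold change −0.39, adjusted p = 0.374). Neither passed the adjusted test, although the groups did not overlap for either gene. Of the 16 tested genes of the eIF4G family and eIF4F complex, EIF4G2 was the 1 that passed (0.265% of all genes fell). At an unadjusted p under 0.05, 3 of the 16 were lower and 1 higher (6.99% and 5.0% of all genes). Of the 14 eIF3 subunits 0 passed by edgeR, with 2 lower and 0 higher at that p.

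**Figure D1:**
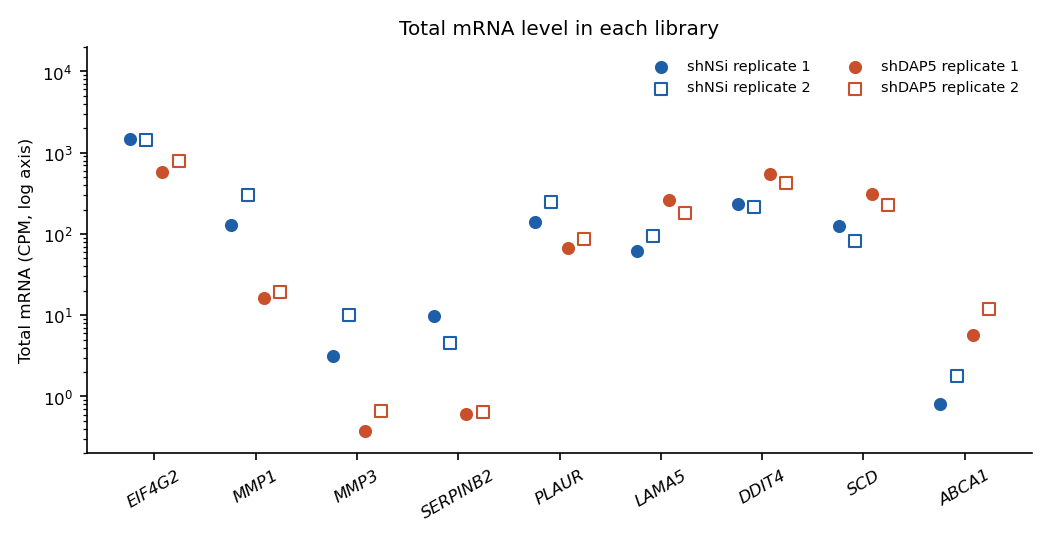
Total mRNA level of 9 genes in each of the 4 libraries, in CPM on a log axis. Blue symbols are shNSi and orange symbols shDAP5, with filled circles for replicate 1 and open squares for replicate 2. For EIF4G2, MMP1, MMP3, SERPINB2 and PLAUR both shDAP5 libraries lie below both shNSi libraries, and for LAMA5, DDIT4, SCD and ABCA1 they lie above.

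After adjustment over the 15084 genes, 53 differed in total mRNA. Of these, 40 fell (0.265% of the genes tested) and 13 rose (0.0862%). Those that fell included mRNAs of secreted and cell surface proteins, actin-binding proteins and lysosomal enzymes, and those that rose included ABCA1 and SCD, which act on lipids, and the signaling inhibitors SOCS2 and DDIT4. The groups did not overlap for any of the 53, a property shared by 20.4% of all genes tested in the lower and 21.9% in the higher direction. At an unadjusted p under 0.05 there were 1055 lower genes (6.99%) and 754 higher genes (5.0%). Across all genes the log2 fold change had a median of 0.01 and an SD of 0.50, and the smallest absolute log2 fold change among the 53 was 0.86. Of the 53, 47 were annotated as protein coding. Without shDAP5 replicate 1 edgeR called 0 genes, with 669 at an unadjusted p under 0.05, and without shNSi replicate 1, shNSi replicate 2 or shDAP5 replicate 2 it called 330, 98 or 136 genes. The split of 40 lower and 13 higher became 5 and 0 with limma on quantile-normalized log2 values, and 62 and 74 without shDAP5 replicate 2. Without TMM scaling, 857 genes had lower and 905 higher levels at an unadjusted p under 0.05, against 1055 and 754 with it.

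**Figure D2:**
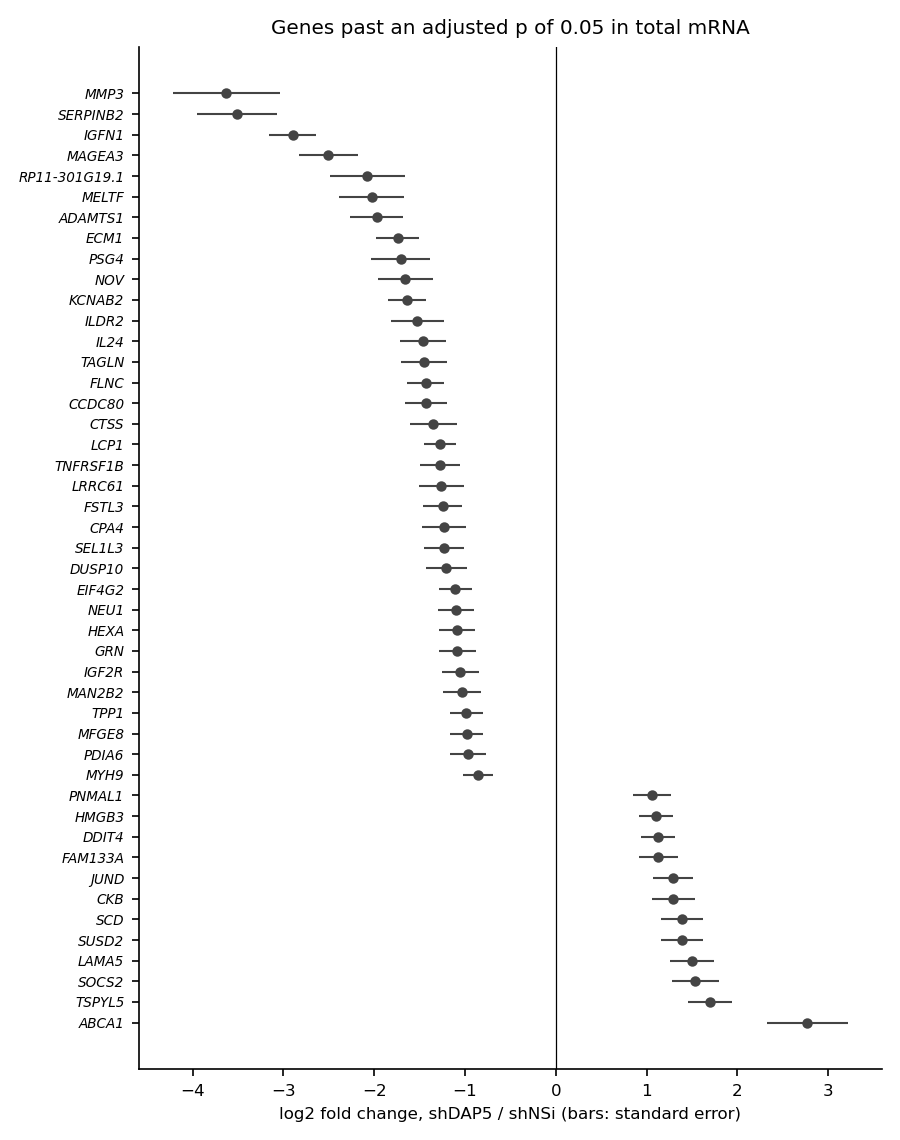
Log2 fold change in total mRNA (shDAP5 against shNSi) with its standard error for the genes with an adjusted p under 0.05, without 6 genes that had 0 or 1 count in the shDAP5 libraries and 1 gene not reported here. MMP3 and SERPINB2 are the lowest of those shown, at −3.63 and −3.51, and ABCA1 is the highest, at 2.77.

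Extracellular proteases were among the mRNAs with the lowest fold changes. MMP1, an interstitial collagenase (chr11:102789920-102798160, minus strand), was at 130 and 304 CPM in shNSi and at 16.2 and 19.2 CPM in shDAP5. Its log2 fold change of −3.61 (SE 0.44) had an adjusted p of 0.0593 and did not pass, with the shNSi libraries more than 2-fold apart. MMP1 passed under 9 of the 15 alternative analyses, with adjusted p from 4.22e-41 to 0.760. MMP3, the stromelysin encoded beside it (chr11:102835801-102843803, minus strand), was at 3.19 and 10.01 CPM in shNSi and at 0.381 and 0.672 CPM in shDAP5, and fell by 3.63 (SE 0.59, adjusted p = 0.0402). MMP14, a membrane-anchored metalloproteinase, was at 143 and 276 CPM in shNSi and at 119 and 108 CPM in shDAP5 (log2 fold change −0.88, adjusted p = 0.220). Of the inhibitors of these enzymes, TIMP2 was at 643 and 541 CPM in shNSi and at 352 and 474 CPM in shDAP5 (adjusted p = 0.255), whereas TIMP1 overlapped between the groups. Of the 15 metalloproteinases and inhibitors tested, 1 fell and 0 rose, 5 were lower at an unadjusted p under 0.05 (6.99% of all genes), and the median log2 fold change was −0.19. Without shNSi replicate 1 the median was −0.42 and 4 passed, and without any other single library 3 were lower at that p, with 2 higher without shNSi replicate 2. The median of this list in shNSi replicate 1 lay 0.56 below that in shNSi replicate 2, and 6 of the 15 were lower in both shDAP5 libraries than in both controls (40.0%, against 20.4% of all genes). ADAMTS1, another secreted metalloproteinase, fell by 1.97 (SE 0.29, adjusted p = 0.0130), from 22.5 and 18.3 CPM to 3.66 and 6.72 CPM. CPA4, a secreted carboxypeptidase, fell by 1.23 (adjusted p = 0.0386).

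In the plasminogen activation system 1 gene of the 9 tested fell, an inhibitor (0.265% of all genes fell). SERPINB2, the plasminogen activator inhibitor PAI-2, was at 9.71 and 4.57 CPM in shNSi and at 0.610 and 0.636 CPM in shDAP5, and fell by 3.51 (SE 0.44, adjusted p = 0.00305). PLAUR, the urokinase receptor, was at 142 and 244 CPM in shNSi and at 68.1 and 87.7 CPM in shDAP5 (log2 fold change −1.31, adjusted p = 0.0593). The activators themselves, PLAU with a log2 fold change of −0.42 and PLAT with −0.66, overlapped between the groups. Of the 9 genes tested 0 rose, and 5 were lower at an unadjusted p under 0.05 (55.6%, against 6.99% of all genes), with a median of −0.79. By role, 4 of 5 inhibitors, 1 of 2 receptors and 0 of 2 proteases were lower at that p. With single libraries left out, the median of the list ranged from −1.04 (without shDAP5 replicate 1) to −0.57 (without shNSi replicate 2).

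GPC4, a cell surface heparan sulfate proteoglycan, had 86 and 53 counts in the shNSi libraries and 1 and 0 in the shDAP5 libraries, a ratio of 138 with a 95% counting interval of 24.4 to 5490. ECM1, a secreted matrix glycoprotein, fell by 1.74 (SE 0.24, adjusted p = 0.00505), from 43.9 and 52.4 CPM to 11.5 and 17.2 CPM. NOV, a matricellular protein of the CCN family, fell by 1.66 (adjusted p = 0.0386). CCDC80, a secreted matrix-binding protein, fell by 1.43 (adjusted p = 0.0207), and MFGE8, which bridges phosphatidylserine and integrins, fell by 0.98 (adjusted p = 0.0346). Of the 10 laminin chains tested 1 rose and 0 fell, and 3 were lower and 2 higher at an unadjusted p under 0.05 (6.99% and 5.0% of all genes). LAMA5 was at 61.9 and 94.7 CPM in shNSi and at 264 and 180 CPM in shDAP5, and rose by 1.5 (SE 0.24, adjusted p = 0.0287). Another laminin chain, LAMA1, had a log2 fold change of −1.26 (adjusted p = 0.0980). Among the 24 collagens tested 0 passed by edgeR, with 4 lower and 1 higher at an unadjusted p under 0.05 (6.99% and 5.0% of all genes). COL4A1, a basement membrane chain, was at 69.1 and 68.5 CPM in shNSi and at 20.6 and 36.6 CPM in shDAP5 (log2 fold change −1.26, adjusted p = 0.0552), and its partner COL4A2 had a log2 fold change of −1.15 (adjusted p = 0.0771).

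Integrin mRNAs, which encode receptors for the matrix, did not pass the adjusted test. ITGA3, the laminin-binding alpha chain, was at 1070 and 1383 CPM in shNSi and at 723 and 790 CPM in shDAP5 (log2 fold change −0.70, adjusted p = 0.0948). ITGB1, the common beta chain, was at 463 and 443 CPM in shNSi and at 219 and 336 CPM in shDAP5 (log2 fold change −0.71, adjusted p = 0.148). Of the 16 integrin chains tested 0 passed by edgeR, 8 had lower and 0 higher levels at an unadjusted p under 0.05 (6.99% and 5.0% of all genes), and 11 had lower and 1 higher levels without overlap between the groups (20.4% and 21.9% of all genes). Their median log2 fold change was −0.61, and the median of the list differed by only 0.01 between the shNSi replicates. With each library left out in turn, the number lower at an unadjusted p under 0.05 ranged from 4 to 8. Without shNSi replicate 1, and likewise without shDAP5 replicate 2, 2 integrin mRNAs passed, and over the alternatives 0 to 4 did. CD44, the hyaluronan receptor and a marker of these cells, was at 518 and 657 CPM in shNSi and at 204 and 330 CPM in shDAP5 (log2 fold change −1.14, adjusted p = 0.0593).

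Promoters of called genes were searched for the motif TGANTCA, bound by AP-1 factors such as JUN and FOS. The motif reads the same on both strands. Windows reached from 250 bases before to 50 bases after each start (RefSeq, GRCh38.p14). Windows were at hand for 29 of the 40 genes that fell and 8 of the 13 that rose, some with several, and MMP1, MMP3 and ADAMTS1 were among the genes not searched. The motif occurred in 3 of the 39 windows of genes that fell (7.69%) and in 0 of 9 windows of genes that rose. It occurred in 5.47% of windows of all genes tested and in 7.71% of all 35116 windows. The 3 windows belonged to SERPINB2, ECM1 and CPA4. The 250 bases before their starts are printed with the motif in capitals, which begins 102 bases before the start in SERPINB2 (chr18:63887455-63887704, plus strand), 204 and 78 bases in ECM1 (chr1:150507859-150508108, plus strand), and 48 and 15 bases in CPA4 (chr7:130292911-130293160, plus strand).
SERPINB2: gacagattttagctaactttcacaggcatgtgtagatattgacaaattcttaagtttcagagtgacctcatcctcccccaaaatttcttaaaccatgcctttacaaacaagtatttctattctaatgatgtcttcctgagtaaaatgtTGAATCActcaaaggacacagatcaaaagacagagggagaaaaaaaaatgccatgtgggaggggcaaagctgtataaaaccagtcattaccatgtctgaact
ECM1: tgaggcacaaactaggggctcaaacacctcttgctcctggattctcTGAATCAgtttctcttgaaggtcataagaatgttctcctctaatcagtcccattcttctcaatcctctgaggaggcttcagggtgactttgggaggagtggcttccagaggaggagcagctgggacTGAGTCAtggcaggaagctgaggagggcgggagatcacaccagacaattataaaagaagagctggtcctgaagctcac
CPA4: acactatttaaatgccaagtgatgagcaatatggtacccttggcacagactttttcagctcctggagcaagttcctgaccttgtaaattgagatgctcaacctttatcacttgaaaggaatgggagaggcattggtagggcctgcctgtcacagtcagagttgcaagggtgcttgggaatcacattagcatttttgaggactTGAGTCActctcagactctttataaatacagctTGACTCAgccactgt
Of the factors that bind this motif, JUND rose by 1.29 (SE 0.22, adjusted p = 0.0273), from 34.4 and 45.6 CPM to 116 and 80.0 CPM. JUN was at 369 and 596 CPM in shNSi and at 416 and 611 CPM in shDAP5, and its groups overlapped. Of the 19 AP-1 family genes tested, JUND was the 1 that passed, and the median log2 fold change was 0.10.

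Of 38 genes of the actin cytoskeleton tested 5 fell and 0 rose, against 0.265% of all genes that fell. ADD2, the beta chain of the spectrin-binding protein adducin, had 42 and 23 counts in shNSi and 0 and 1 in shDAP5, a ratio of 64.6 with a 95% counting interval of 11.2 to 2590. TAGLN, the actin-binding protein transgelin, fell by 1.45 (SE 0.25, adjusted p = 0.0277), from 29.6 and 26.9 CPM to 7.85 and 12.8 CPM. FLNC, the crosslinker filamin C, fell by 1.43 (SE 0.20, adjusted p = 0.00505), from 113 and 81.6 CPM to 35.6 and 36.4 CPM. The bundling protein LCP1, or L-plastin, fell by 1.27 (SE 0.18, adjusted p = 0.00505), from 328 and 361 CPM to 135 and 150 CPM. MYH9, the heavy chain of nonmuscle myosin IIA, fell by 0.86 (SE 0.17, adjusted p = 0.0386), from 997 and 1073 CPM to 539 and 603 CPM. In each of these genes both shDAP5 libraries lay below both controls. The more abundant FLNA, filamin A, was at 2238 and 2399 CPM in shNSi and at 1451 and 1473 CPM in shDAP5 (log2 fold change −0.67, adjusted p = 0.0771). Lower values at an unadjusted p under 0.05 were found for 10 of the 38 (6.99% of all genes), and 13 were lower without overlap between the groups (20.4% of all genes). The median log2 fold change of the list was −0.11, and −0.06 without shNSi replicate 1 or −0.19 without shNSi replicate 2. Without shDAP5 replicate 1, 0 passed by edgeR, with 8 lower at an unadjusted p under 0.05. This list was drawn up after the values were seen.

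Of the 91 lysosomal genes tested 7 fell and 0 rose, against 0.265% and 0.0862% of all genes. Without shNSi replicate 2 or without shDAP5 replicate 1, 0 passed by edgeR, with 32 and 28 lower at an unadjusted p under 0.05, and 28 passed without shNSi replicate 1. Lysosomes degrade macromolecules with acid hydrolases that are made at the endoplasmic reticulum and sorted through mannose 6-phosphate receptors, under the control of TFEB-family factors. NEU1, a sialidase, was at 107 and 151 CPM in shNSi and at 61.9 and 59.0 CPM in shDAP5, and fell by 1.10 (SE 0.20, adjusted p = 0.0287). HEXA, a hexosaminidase chain, fell by 1.09 (SE 0.20, adjusted p = 0.0287), from 85.3 and 106 CPM to 39.7 and 50.3 CPM. TPP1, a tripeptidyl peptidase, fell by 0.99 (adjusted p = 0.0321), from 133 and 164 CPM to 76.0 and 74.0 CPM. All of these were lower to a similar extent in both shDAP5 libraries. GRN, the lysosomal cofactor progranulin, fell by 1.09 (adjusted p = 0.0362), from 237 and 355 CPM to 137 and 142 CPM. CTSS, the protease cathepsin S, fell by 1.35 (adjusted p = 0.0386), and MAN2B2, a mannosidase, fell by 1.03 (adjusted p = 0.0439). IGF2R, the large mannose 6-phosphate receptor, fell by 1.05 (SE 0.20, adjusted p = 0.0386), from 135 and 178 CPM to 65.3 and 85.3 CPM.

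At an unadjusted p under 0.05, 56 lysosomal genes were lower (61.5%, against 6.99% of all genes) and 1 higher, IDS, a sulfatase with a log2 fold change of 0.52. Both shDAP5 libraries lay below both shNSi libraries for 73 of the 91 (80.2%, against 20.4%), and the median log2 fold change was −0.56. By role, 24 of 32 hydrolases, 8 of 14 proteases, 3 of 3 activators, 9 of 16 membrane proteins, 8 of 17 proton pump genes and 3 of 5 sorting proteins were lower at an unadjusted p under 0.05. Of the 4 TFEB-family factors 1 was lower, and their median was 0.13. Examples that did not pass after adjustment were LAMP1, the major membrane glycoprotein, at −0.96 (adjusted p = 0.0607), PSAP, the saposin precursor, at −0.87 (adjusted p = 0.0774), and ASAH1, acid ceramidase, at −0.92 (adjusted p = 0.0659). The control libraries also differed for this list. Its median in shNSi replicate 2 lay 0.33 above that in shNSi replicate 1, with 74 of the 91 genes higher, while shDAP5 replicates 1 and 2 lay 0.67 and 0.51 below the shNSi mean. The part of this difference between controls in the result was not tested. The number lower at an unadjusted p under 0.05 was 63 without shNSi replicate 1, 32 without shNSi replicate 2, 28 without shDAP5 replicate 1 and 48 without shDAP5 replicate 2, and the number that passed was 28, 0, 0 and 8. This list was drawn up after the values were seen, and is described here by its counts.

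The motif TCACGTGA, the core of the element bound by TFEB and its relatives, occurred in 11 of 94 promoter windows of the lysosomal genes tested (11.7%), against 1.63% of windows of all genes tested and 0.98% of all windows. It reads the same on both strands. The 10 lysosomal genes with it had a median log2 fold change of −0.62, with 7 lower at an unadjusted p under 0.05. The 55 with windows but without it had a median of −0.56, with 35 lower at that p, and the difference between the sets was not tested. Of the 29 genes that fell and had a window, IGF2R was the 1 with it, while HEXA and CTSS were not searched. The 250 bases before the IGF2R start (chr6:159968832-159969081, plus strand) are shown because they hold the motif, in capitals, at 3 places, beginning 133, 75 and 29 bases before the start.
IGF2R: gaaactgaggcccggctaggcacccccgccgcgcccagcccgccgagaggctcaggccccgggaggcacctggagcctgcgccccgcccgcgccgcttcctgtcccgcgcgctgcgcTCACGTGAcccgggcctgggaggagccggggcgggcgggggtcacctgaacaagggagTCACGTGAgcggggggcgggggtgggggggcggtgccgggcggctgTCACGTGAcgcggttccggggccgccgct

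The endoplasmic reticulum is where these proteins are folded, and 1 mRNA of its chaperone list fell. PDIA6, a protein disulfide isomerase, was at 188 and 261 CPM in shNSi and at 108 and 121 CPM in shDAP5, and fell by 0.97 (SE 0.20, adjusted p = 0.0479). P4HB, another disulfide isomerase, had a log2 fold change of −0.85 (adjusted p = 0.0593), PDIA3 of −0.90 (adjusted p = 0.0743) and CALR, the lectin chaperone calreticulin, of −0.85 (adjusted p = 0.116). With single libraries left out, these ranged from −1.09 to −0.60 for P4HB, −1.18 to −0.60 for PDIA3 and −1.20 to −0.44 for CALR. HSPA5, the chaperone BiP and the usual reporter of the unfolded protein response, was at 382 and 564 CPM in shNSi and at 415 and 382 CPM in shDAP5, and the groups overlapped. Of the 26 genes tested 1 fell and 0 rose (0.265% of all genes fell). Lower values at an unadjusted p under 0.05 were found for 13 and higher values for 0, against 6.99% and 5.0% of all genes, and the median was −0.48. In this list too shNSi replicate 2 was above shNSi replicate 1, by a median of 0.46, with 22 of the 26 genes higher. Without shNSi replicate 1, 9 passed, and without any other single library 0 passed by edgeR. Without shNSi replicate 2 the median was −0.22 and the number lower at an unadjusted p under 0.05 was 5, and without shDAP5 replicate 1 or 2 that number was 6 or 12. Of the 52 genes of ER entry and export 0 passed by edgeR, and 10 were lower and 1 higher at an unadjusted p under 0.05 (6.99% and 5.0% of all genes). They included SEC61A1, the channel of the translocon, at −0.87 (adjusted p = 0.0593), and STT3A, a catalytic subunit of oligosaccharyltransferase, at −0.85 (adjusted p = 0.0768). The genes of antigen presentation had a median of −0.68 with 0 of 23 passing by edgeR. At an unadjusted p under 0.05, 8 of them were lower and 1 higher (34.8% and 4.35%, against 6.99% and 5.0% of all genes). However, every one of the 23 was higher in shNSi replicate 2 than in shNSi replicate 1, by a median of 0.66.

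**Figure D3:**
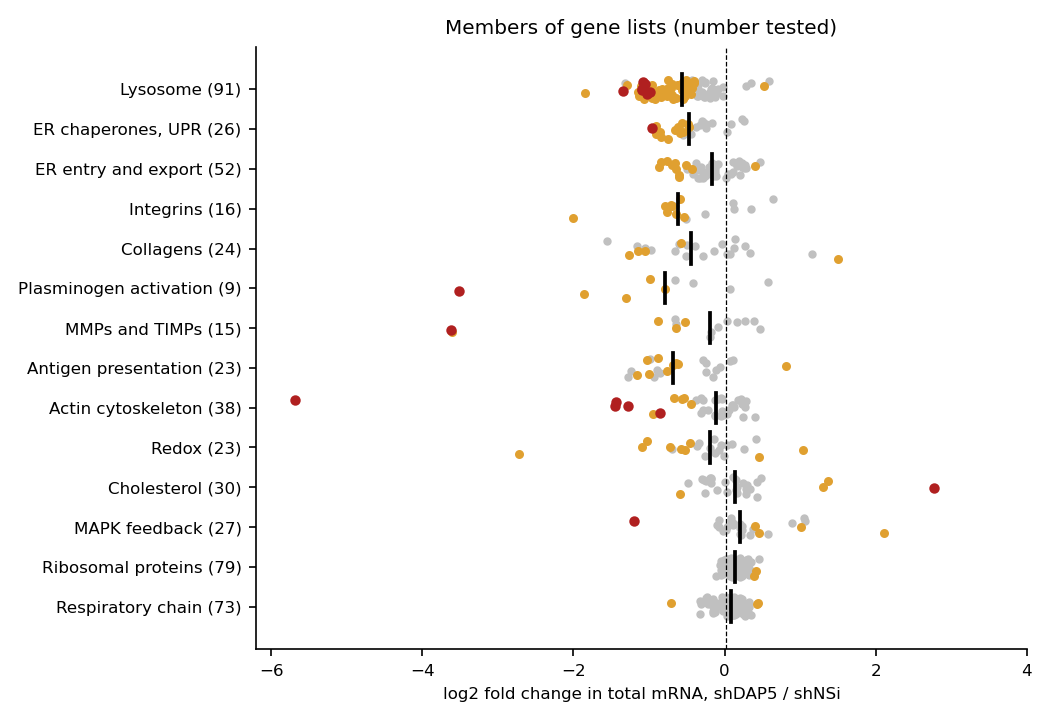
Log2 fold change in total mRNA of each tested member of 14 gene lists. Red points passed an adjusted p of 0.05, orange points had an unadjusted p under 0.05 only, grey points neither, black bars are list medians and the dashed line is the median of all genes tested. The lysosome, ER chaperone, integrin and plasminogen lists lie to the left, with medians of −0.56, −0.48, −0.61 and −0.79, and the ribosomal protein list lies close to 0 with a median of 0.14.

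**Figure D4:**
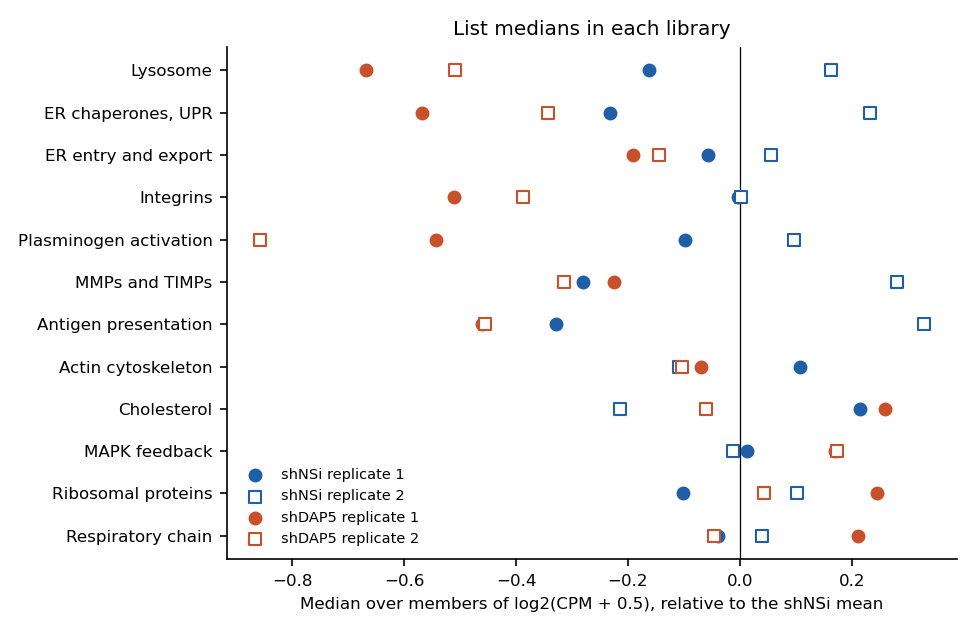
Median over the members of each list of log2(CPM + 0.5) in each library, relative to the mean of the shNSi libraries. Blue symbols are shNSi and orange symbols shDAP5, with filled circles for replicate 1 and open squares for replicate 2. The integrin list shows the control libraries together, whereas for antigen presentation shNSi replicate 1 lies at −0.33, near the shDAP5 libraries at −0.46.

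Of the 40 cytokine, chemokine and NF-kB pathway genes tested 1 fell and 0 rose (0.265% and 0.0862% of all genes), and 34 of the 40 were higher in shNSi replicate 2 than in shNSi replicate 1, by a median of 0.74. IL24, a cytokine of the IL-10 family, fell by 1.46 (SE 0.26, adjusted p = 0.0277), from 37.8 and 23.1 CPM to 10.6 and 11.5 CPM. Outside this list, TNFRSF1B, the TNF receptor 2, fell by 1.27 (SE 0.22, adjusted p = 0.0252), from 40.6 and 44.9 CPM to 20.1 and 15.3 CPM. FSTL3, a secreted antagonist of activin and also outside the list, fell by 1.25 (adjusted p = 0.0263). SOCS2, an inhibitor of JAK-STAT signaling, rose by 1.54 (SE 0.26, adjusted p = 0.0218), from 6.84 and 6.15 CPM to 22.5 and 15.2 CPM. Of the 23 IL6 family signaling genes tested 1 rose and 0 fell (0.0862% and 0.265% of all genes). At an unadjusted p under 0.05, 3 were higher and 1 lower (5.0% and 6.99% of all genes). IL6 itself was at 16.9 and 42.7 CPM in shNSi and at 62.6 and 65.0 CPM in shDAP5 (log2 fold change 1.10, adjusted p = 0.372). Among the 27 genes of feedback on the MAPK pathway 1 fell and 0 rose (0.265% and 0.0862% of all genes). At an unadjusted p under 0.05, 1 was lower and 4 higher (6.99% and 5.0% of all genes). The phosphatase DUSP10 fell by 1.20 (SE 0.23, adjusted p = 0.0439), from 89.3 and 91.6 CPM to 29.3 and 49.2 CPM. Others of this list were higher without passing, such as SPRY1, an inhibitor of receptor signaling, at 1.02 (adjusted p = 0.0593), and DUSP4, a nuclear phosphatase, at 0.46 (adjusted p = 0.267). In all, 11 of the 27 were higher without overlap (40.7%, against 21.9% of all genes), and the median was 0.21.

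Of the 30 genes of cholesterol synthesis and uptake tested 1 rose and 0 fell (0.0862% and 0.265% of all genes). At an unadjusted p under 0.05, 3 were higher (5.0% of all genes) and 1 lower (6.99% of all genes). ABCA1, the transporter that exports cholesterol, was at 0.815 and 1.76 CPM in shNSi and at 5.76 and 11.8 CPM in shDAP5, and rose by 2.77 (SE 0.45, adjusted p = 0.0287). SCD, a desaturase that makes monounsaturated fatty acids and is not in this list, was at 125 and 82.2 CPM in shNSi and at 314 and 229 CPM in shDAP5, and rose by 1.39 (SE 0.23, adjusted p = 0.0277). SREBF1, the factor that drives fatty acid synthesis, was at 28.4 and 56.6 CPM in shNSi and at 110 and 109 CPM in shDAP5 (log2 fold change 1.36, adjusted p = 0.0840). MYLIP, which promotes degradation of the LDL receptor, had a log2 fold change of 1.31 (adjusted p = 0.113). Among 20 enzymes of cholesterol synthesis, 1 was lower and 0 higher at an unadjusted p under 0.05, and their median was −0.05. Of the 30 genes of the list, 7 were higher in shNSi replicate 2 than in shNSi replicate 1, and the median difference between these controls was −0.43.

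Other genes that rose were DDIT4, a stress-induced inhibitor of mTORC1, by 1.13 (SE 0.18, adjusted p = 0.0178), from 236 and 212 CPM to 550 and 427 CPM. TSPYL5 rose by 1.70 (adjusted p = 0.00564), SUSD2, a membrane protein, by 1.39 (adjusted p = 0.0193), and CKB, the brain creatine kinase, by 1.29 (adjusted p = 0.0346). HMGB3, a chromatin protein, rose by 1.10 (adjusted p = 0.0252), FAM133A by 1.13 (adjusted p = 0.0346) and PNMAL1 by 1.06 (adjusted p = 0.0439). The remaining genes that fell included IGFN1, which encodes a protein of immunoglobulin-like and fibronectin domains and had the lowest p of all genes. It was at 37.9 and 55.1 CPM in shNSi and at 5.41 and 7.03 CPM in shDAP5, and fell by 2.90 (SE 0.26, adjusted p = 0.000176). KCNAB2, a potassium channel subunit, fell by 1.64 (adjusted p = 0.00305). ILDR2 fell by 1.52 (adjusted p = 0.0386) and LRRC61 fell by 1.26 (adjusted p = 0.0439). SEL1L3 fell by 1.23 (adjusted p = 0.0284) and MELTF, melanotransferrin, fell by 2.03 (adjusted p = 0.0402). MAGEA3, a cancer-testis antigen, fell by 2.50 (adjusted p = 0.00305) and PSG4, a pregnancy-specific glycoprotein, fell by 1.71 (adjusted p = 0.0359), both being members of families of near-identical genes between which reads can be shared.

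Among symbols of noncoding or uncertain type, RP11-301G19.1 fell by 2.07 (adjusted p = 0.0439), and others had no count in either shDAP5 library. The pseudogene NDUFB4P8 had 36 and 56 counts in shNSi and 0 and 0 in shDAP5, at least 30.5-fold lower when the floor of 3 counts over the group is used. RP11-460B17.3 was at least 11.3-fold lower, AC007163.6 at least 9.6-fold and RP11-268P4.5 at least 8.94-fold on the same floor. Reads of NDUFB4P8 can be shared with its parent gene, so its value is uncertain.

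Several large classes held no gene that passed. Of 79 cytosolic ribosomal protein genes 0 passed by edgeR, and 2 were higher and 0 lower at an unadjusted p under 0.05 (5.0% and 6.99% of all genes), with log2 fold changes from −0.11 to 0.46 and a median of 0.14. Without TMM scaling 12 were higher at that p, and without shNSi replicate 2, 5 were. For 28 of them both shDAP5 libraries were higher (35.4%, against 21.9% of all genes). All 79 were also higher in shNSi replicate 2 than in shNSi replicate 1, and without shNSi replicate 1 the median was 0.01. The 73 nuclear genes of the respiratory chain had a median of 0.08 with 0 passing by edgeR. At an unadjusted p under 0.05, 1 was lower and 2 higher (6.99% and 5.0% of all genes). The 42 cell cycle genes had a median of 0.08, the 46 DNA damage response genes −0.08 and the 45 interferon-stimulated genes 0.17, all with 0 passing by edgeR. At an unadjusted p under 0.05, 2 cell cycle genes were lower and 2 higher (6.99% and 5.0% of all genes). Of the DNA damage response genes 4 were lower and 1 higher at that p, and of the interferon-stimulated genes 1 and 3. Among 15 NRF2 targets, 7 had lower and 1 a higher level at that p (6.99% and 5.0% of all genes). TXNRD1, thioredoxin reductase, was at 934 and 817 CPM in shNSi and at 468 and 595 CPM in shDAP5 (log2 fold change −0.72, adjusted p = 0.0870). Over 12312 protein-coding genes, Spearman's rho between coding sequence length and log2 fold change was −0.11, and the medians of the length quartiles, from short to long, were 0.06, 0.00, −0.01 and −0.04.

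The 16 mRNAs that the study listed as most strongly reduced in polysomes were chosen on these cultures, so their direction here is not independent evidence. In total mRNA 1 of them, MMP3, fell (0.265% of all genes), 7 were lower and 0 higher at an unadjusted p under 0.05 (6.99% and 5.0% of all genes), and the median was −0.60. Without shDAP5 replicate 1 the median was −0.39 and 0 passed, with 5 lower at that p. Without shDAP5 replicate 2 also 0 passed, with 9 lower at that p, and without shNSi replicate 1 or 2, 5 or 3 passed. ITGA5, the fibronectin receptor chain, was at 97.3 and 146 CPM in shNSi and at 68.5 and 75.8 CPM in shDAP5 (log2 fold change −0.76, adjusted p = 0.129). SERPINE2, the protease inhibitor nexin-1, had a log2 fold change of −0.79 (adjusted p = 0.0952). EGFR was at 173 and 121 CPM in shNSi and at 68.6 and 125 CPM in shDAP5, and ETS1, a transcription factor, at 454 and 256 CPM in shNSi and at 179 and 269 CPM in shDAP5, so both overlapped between groups. CDK12, a kinase of transcription elongation, and TP53BP1, a DNA repair factor, were at −0.19 and 0.06 and overlapped as well. The study marked MMP1, MMP3 and JUN among the 16 as changed in transcription as well as in translation. It tested with limma on quantile-normalized values. By edgeR MMP3 passed, MMP1 did not (log2 fold change −3.61, adjusted p = 0.0593), and JUN was at 0.09 with overlap (adjusted p = 0.943). LMNA, which encodes lamin A, a DAP5-independent control of the study's immunoblots, was at 624 and 701 CPM in shNSi and at 545 and 541 CPM in shDAP5, lower without overlap (log2 fold change −0.29, adjusted p = 0.535). The controls GAPDH and HNRNPD, which encodes AUF1, overlapped between the groups, at −0.06 and 0.02.

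The genes that changed in total mRNA were then followed into the polysome libraries of the same cultures, as a description with no test. These libraries share their cultures with the total mRNA, and in the controls a separate moderate pool was taken between light and heavy fractions. The shDAP5 light libraries are titled light but carry the code that marks the moderate pool in the controls, and were read by title, so the light values may set different parts of the gradient side by side. No shDAP5 library is titled moderate, so the heavy pools may not match between the groups either. Of the 40 genes that fell, 39 were also lower without overlap in heavy polysomes, where 30.2% of all genes were, and 40 in light polysomes, where 20.4% were. Their median log2 ratio was −1.83 in heavy and −1.43 in light polysomes. Of the 13 that rose, 11 were higher without overlap in heavy polysomes, against 35.5% of all genes, and 12 in light polysomes, against 21.0%, with medians of 1.29 and 1.22. SUSD2 was the exception in sign, with a log2 ratio of −0.30 in heavy and 1.22 in light polysomes. Lower levels in heavy polysomes were larger than those in total mRNA for some genes and smaller for others. IGF2R had a log2 ratio of −3.01 in heavy and −0.55 in light polysomes, MYH9 of −2.49 and −0.65, and TAGLN of −0.40 and −1.63, while MMP1 had −4.84 and −3.45. EIF4G2 had −0.87 and −1.32. In the shNSi heavy libraries 1 and 2, IGF2R was at 119 and 410 CPM, MYH9 at 861 and 1768 CPM and MMP1 at 222 and 661 CPM. The size of the heavy ratios of these genes therefore rests in large part on shNSi replicate 2.

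**Figure D5:**
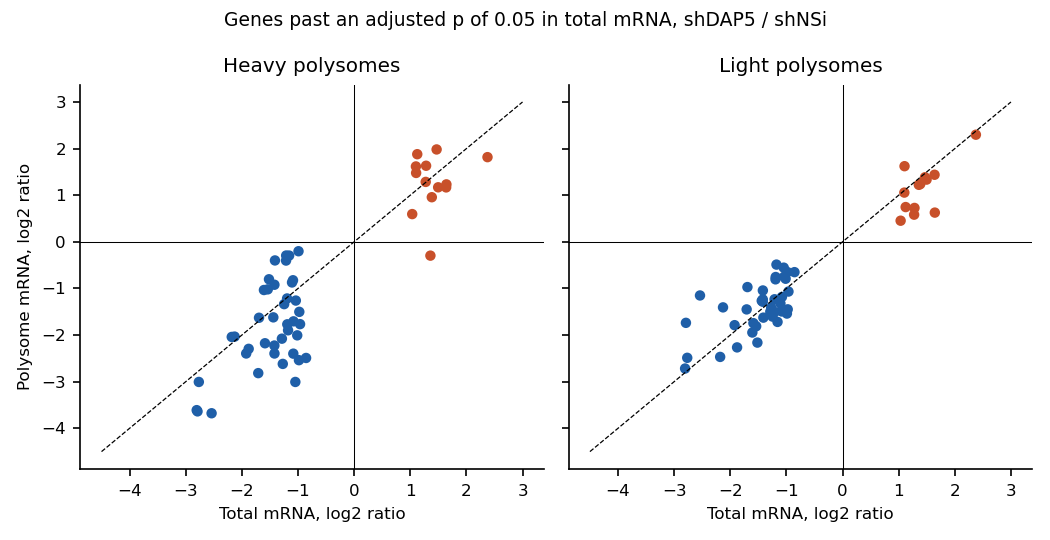
Log2 ratio (shDAP5 against shNSi, from mean CPM plus 0.5) of the 53 genes that passed in total mRNA, with total mRNA on the horizontal axes and heavy or light polysomes on the vertical axes. Blue points fell and orange points rose in total mRNA, and the dashed line marks equal ratios. All but 1 point, SUSD2 in heavy polysomes, keep their sign.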

How the data were processed

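RNA sequencing was performed on a HiSeq 2500 with single reads. The authors deposited raw read counts, 1 whole number for a gene symbol and library, with no scaling. The submitters' processing notes name STAR 2.6.0a, limma and the build hg19, without roles. The name of the deposited table points to featureCounts. Its version, annotation and strand setting are not given in the sources used here, so reads of overlapping and antisense genes may be shared. Positions were taken by symbol from GENCODE v29 (GRCh38) and promoters from RefSeq (GRCh38.p14), and no coordinates of the hg19 files were used. The 13 mitochondrially encoded mRNAs were not analysed here.

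The paper describes 2 independently performed sets of cultures, and p-values measure the spread between these libraries. Replicates differed by more than sampling noise (chi-square per degree of freedom 45.7 in shNSi and 32.7 in shDAP5). The total counts of 25965424 to 28056227 and the 2 libraries per group limit precision, and intervals and floors cover counting error only. Genes with at least 10 counts in 2 of the 4 libraries were kept and scaled by TMM, and the robust quasi-likelihood fit and F test of edgeR 4.0.16 were run in R 4.3.3. P-values were adjusted over all 15084 genes, with a threshold of 0.05, and the SE was taken as the absolute log2 fold change divided by the square root of F. An exact permutation test of 2 against 2 cannot give a two-sided p below 0.333. The script was tested on simulated data. CPM are TMM-normalized.

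Genes named were EIF4G2, MMP1 and MMP3, the 15 lowest and 15 highest log2 fold changes among those past the threshold, called members of the lists (or the member with the lowest p), members without overlap and an absolute log2 fold change of at least 1, and the genes listed by the study. Other list members were named after their values were seen, and some genes under this rule are not reported here. The members and the 41 lists were chosen with earlier results of these data known, and 3 lists (lysosome, ER entry and export, actin cytoskeleton) were added after the values were seen. Alternatives were DESeq2 1.42.0, library size without TMM, limma 3.58.1 on quantile-normalized log2(CPM + 1) or log2(CPM + 0.25), other filters, the replicate block, all 14 libraries in 1 fit, no robust estimation and each library left out.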

Additional observations from a re-analysis of the deposited data

How the results depend on the processing

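The 53 genes past the adjusted threshold became 274 with DESeq2 (50 of them shared), 18 with library size without TMM, 5 with limma on quantile-normalized values at a pseudocount of 1, and 0 with limma at a pseudocount of 0.25 (1659 at an unadjusted p under 0.05). Without a filter on low counts 577 passed, including all 53, and with all 14 libraries in 1 fit 3 passed. Without robust estimation 33 passed, with filterByExpr 53, and with at least 10 counts in every library 45. With each library left out in turn, 0 to 330 passed, the lone library of a group being assumed to vary like the other. The direction of the 53 stayed the same in every alternative that gave a value, which was all 15 for 47 of them and 14 for the other 6, and each of the 53 lost its call under 2 to 10 of them. Among the 164 genes followed over the alternatives, 5 that overlapped between the groups changed sign. GAPDH and HNRNPD were not followed in this way. On leaving out single libraries, log2 fold changes ranged from −0.47 to 0.043 for CDK12 (positive without shNSi replicate 1, at 0.0076, or shDAP5 replicate 1), from −0.24 to 0.48 for JUN (negative without shNSi replicate 1, or shDAP5 replicate 2, at −0.23), from −0.022 (without shDAP5 replicate 1) to 0.12 for TP53BP1, from −0.53 to 0.062 (without shNSi replicate 2) for HSPA5 and from −1.14 to 0.016 (without shNSi replicate 2) for TIMP1. The cause was not tested.

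With the replicate number as a block 392 genes passed. The study's 2 independent sets may correspond to these numbers, but the labels do not say so. Deviations of same-numbered libraries had a correlation of −0.12. With the numbers crossed, a pairing chosen after seeing the data, 75 passed. The lysosome list had 23 to 63 members lower at an unadjusted p under 0.05 over the alternatives, with medians from −0.81 to −0.41, and these list values were also chosen for recomputation after seeing the data.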

Other observations

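By chromosome, the median log2 fold change of protein-coding genes was lowest on chromosome 13, at −0.18 over 216 genes. Of these, 32 were lower and 3 higher at an unadjusted p under 0.05 (6.99% and 5.0% of all genes tested). Relative to the shNSi mean, the chromosome 13 median was −0.26 in shDAP5 replicate 1 and −0.09 in shDAP5 replicate 2, with the shNSi libraries at 0.03 and −0.03. LCP1, COL4A1 and COL4A2 lie on this chromosome. The highest median was that of chromosome 20, at 0.13 over 330 genes, and LAMA5 lies there. Of these genes, 16 were lower and 38 higher at that p (6.99% and 5.0% of all genes tested). These values were looked at after the data were seen and were not tested.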
